A study of Mus musculus with 27 samples.

Results

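Kidneys that had been ischemic for 18 or 20 min were set against sham kidneys in mouse. The groups were taken from the ischemia time in the sample labels, and no measured value took part in the choice. The 18 min group held 3 kidneys and the 20 min group 3, and these 6 were pooled against 3 sham kidneys, so that 9 of the 27 kidneys of the series entered. All came from C57BL/6 mice whose right kidney had been excised and whose left kidney was collected 24 h after the operation. The left renal pedicle was clamped for 18 or 20 min in the ischemic mice and for 0 min in the sham mice. The sham kidneys were thus solitary kidneys after anesthesia, nephrectomy and warming on a heating platform, and they were not kidneys of untouched animals. Age and sex were not given in the labels.

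Tubule cells of the outer medulla and cortex depend on oxidative metabolism and are injured when blood flow stops. Surviving tubule cells lose part of their transport program, express injury proteins such as kidney injury molecule 1 and lipocalin 2, and re-enter the cell cycle to replace cells that were lost. Fibroblasts and macrophages of the interstitium respond in the same period. The comparison asks which genes had changed after an ischemia short of the longer times in the series, and whether the 18 and 20 min kidneys differed from each other and from their neighbouring times.

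Expression was given as FPKM, fragments scaled by transcript length and by the number of mapped fragments, for 19392 genes. The summed FPKM of the 9 kidneys lay between 534935 and 554036. FPKM carries no read counts and leaves the depth unknown. For 44 genes whose lowest values looked like single fragments the value of a fragment lay between 0.923 and 1.077 times the median in the 27 kidneys. Proximal tubule markers summed to between 2838 and 3154 FPKM in the sham kidneys and between 2769 and 3056 in the ischemic ones. The largest part of that sum was Slc34a1, at 2028 to 2377 and 1876 to 2284 FPKM. Lrp2 and Cubn were lower in all ischemic kidneys (Lrp2 at 156 to 169 against 81.7 to 107 FPKM). Slc5a2 was higher in all of them, at 113 to 137 against 151 to 195 FPKM, and Slc22a6 and Slc13a3 overlapped. In bulk kidney, fewer cells of a type and less RNA per cell cannot be told apart. The replicates were different mice. The Y-linked genes Ddx3y and Eif2s3y stood at 7.36 to 9.92 and at 23.8 to 33.0 FPKM across the 9 kidneys, as in males.

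The sham kidneys differed from each other. The interferon-inducible GTPases summed to 122 FPKM in sham replicate 1, to 3179 in sham replicate 2 and to 2366 in sham replicate 3, against 53.8 to 98.6 in the 6 ischemic kidneys. Sham replicate 3 also had the highest sham values of the injury genes Havcr1 and Lcn2. Results that rest on these kidneys are therefore given with all 3 sham kidneys and with sham replicate 1 as the only control, a setting chosen after the values were seen. Among the ischemic kidneys, 20 min replicate 3 stood nearest to sham: it was the lowest of the 6 in 252 of the 332 genes that rose, and its median log2 ratio to the sham mean over these genes was 0.94, against 1.34 to 1.57 in the other 5.

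Across all 18188 genes tested, 332 rose and 202 fell in the pooled 18 and 20 min kidneys against sham. Genes were called differentially expressed (DEGs) where limma, run on quantile normalized log2(FPKM + 1), gave a change of more than 1 in either direction and a p-value, adjusted by Benjamini-Hochberg, of less than 0.05. This scale understates the change of genes with low values. The rises were 1.83% of the genes tested and the falls 1.11%, and the median log2 fold change of all genes was -0.01. The counts of members that rose or fell in the gene lists below stand against these shares. All 6 ischemic kidneys lay above all 3 sham kidneys in 21.8% of the genes and below them in 8.75%. Of the DEGs, 323 that rose and 143 that fell had no overlap between the groups. A change of at least 2 on the log2 scale was seen in 45 genes that rose and 45 that fell. The share of rises among the DEGs was 62.2%, and it was 71.7% without quantile normalization and 73.4% with FPKM rescaled to a constant sum. With sham replicate 1 alone as control, 275 genes rose (1.52%) and 126 fell (0.694%), of which 236 and 88 were among the DEGs above. In that fit the control arm is 1 kidney, assumed to vary like the kidneys of the other groups, and it was picked for its interferon values.

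Genes that mark injured tubules rose, and Havcr1 had the highest log2 fold change of all genes tested. Of 26 such genes tested, 16 rose, 0 fell, and the median log2 fold change was 1.23. Havcr1 encodes kidney injury molecule 1, a phosphatidylserine receptor that injured proximal tubule cells put on their surface. Havcr1 stood at 2.81, 2.49 and 22.0 FPKM in sham replicates 1, 2 and 3, and at 208 to 584 FPKM (median 388) in the 6 ischemic kidneys. Its log2 fold change was 5.53 (SE 0.63, adjusted p = 3.14e-06, n = 6 against 3 in the limma fit), and the lowest ischemic kidney was far above the highest sham kidney. Lcn2 encodes lipocalin 2, an iron-siderophore binding protein shed into urine. It stood at 11.5, 9.39 and 63.6 FPKM in the sham kidneys and at 123 to 257 FPKM (median 208) after ischemia. The log2 fold change of Lcn2 was 3.11 (SE 0.66, adjusted p = 0.00112), with no overlap even though sham replicate 3 was more than the other 2 sham kidneys together.

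Other injury genes rose by smaller steps. Spp1 (osteopontin), a secreted phosphoprotein of injured tubules, was already abundant at 776 to 1705 FPKM in sham and reached 3727 to 9270 FPKM (median 7912), a log2 fold change of 2.51 (SE 0.43, adjusted p = 0.00018). Krt20, a keratin that healthy tubules hardly express, rose from 0.23, 0.32 and 1.11 FPKM to between 4.55 and 21.4 FPKM (log2 fold change 2.73, SE 0.46, adjusted p = 0.000158). Clu, a secreted chaperone, rose from between 162 and 220 FPKM to between 396 and 852 FPKM (log2 fold change 1.84, SE 0.35, adjusted p = 0.000424). None of these groups overlapped. The simple-epithelium keratins Krt8, Krt18 and Krt19 and the intermediate filament gene Vim rose by 1.16 to 1.90 on the log2 scale. Hmox1, which degrades heme, rose by 1.06 with all sham kidneys, and its log2 fold change was 0.81 when sham replicate 1 was left out, below the fold threshold.

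**Figure D1:**
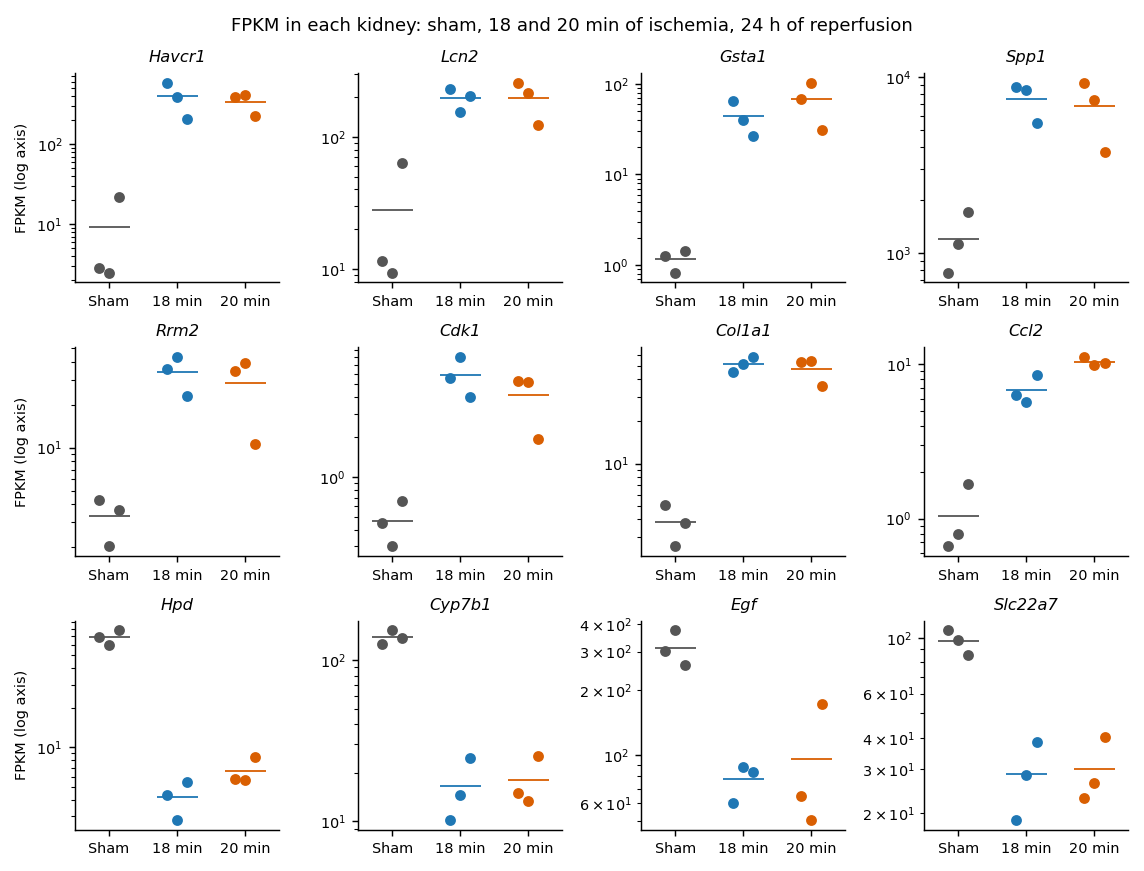
FPKM (log axis) of 12 genes in each of 3 sham, 3 18 min and 3 20 min kidneys, with a point for each kidney and a line at the mean of each group. The injury, proliferation, matrix and chemokine genes lie above sham in all 6 ischemic kidneys (Havcr1 208 to 584 against at most 22.0 FPKM), and Hpd, Cyp7b1, Egf and Slc22a7 lie below sham in all 6.

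Genes of glutathione and redox metabolism were led by Gsta1. Gsta1, an alpha-class glutathione S-transferase, stood at 1.25, 0.83 and 1.44 FPKM in sham and at 26.7 to 103 FPKM (median 52.6) after ischemia, a log2 fold change of 4.42 (SE 0.45, adjusted p = 9.52e-07). Its near copies cannot be separated with certainty from it, because the authors' counting could share fragments among them: the predicted gene Gm3776 was listed at 0 in all 3 sham kidneys and at 10.9 to 52.1 FPKM after ischemia, and Gsta2 rose by 1.09 (SE 0.18). Of 26 targets of NRF2, the transcription factor of the antioxidant response, 5 rose (Gsta1, Akr1b8, Gstp1, Gsta2 and Hmox1), 0 fell, and the median was 0.33. Of all genes 1.83% rose. Nqo1, the classical NRF2 target, went from between 44.8 and 46.0 to between 72.5 and 93.0 FPKM without overlap, a log2 fold change of 0.70 that did not pass the fold threshold. Gclc, of glutathione synthesis, had 0.14 and was not called. Without sham replicate 1 the count of NRF2 targets that rose was 3.

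Most mitosis genes tested rose, and so did part of the DNA replication genes. Of 42 mitosis genes tested 37 rose and 0 fell, with a median log2 fold change of 1.55. Of 45 DNA replication genes 22 rose and 0 fell, with a median of 0.97, and all 45 log2 fold changes were positive. Ube2c, which loads ubiquitin for the anaphase-promoting complex, stood at 3.55, 2.24 and 2.18 FPKM in sham and at 10.3 to 33.0 FPKM (median 22.7) after ischemia, a log2 fold change of 2.55 (SE 0.34, adjusted p = 1.56e-05). Mki67, whose protein coats mitotic chromosomes, rose from 1.08, 0.39 and 0.62 FPKM to between 3.08 and 12.2 FPKM (log2 fold change 2.23, SE 0.33, adjusted p = 4.53e-05). Cdk1, the kinase that drives entry into mitosis, rose from 0.45, 0.30 and 0.66 FPKM to between 1.93 and 8.06 FPKM (log2 fold change 1.87, SE 0.29, adjusted p = 6.11e-05). The groups did not overlap in any of these, and in each the lowest ischemic kidney was 20 min replicate 3. Ccnb1, the cyclin partner of Cdk1, rose by 1.60 (SE 0.35, adjusted p = 0.00157), and against sham replicate 1 alone the adjusted p was 0.116.

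In the replication list the largest rise was that of Rrm2, the small subunit of ribonucleotide reductase, which makes deoxyribonucleotides. Rrm2 stood at 4.28, 2.03 and 3.66 FPKM in sham and at 10.7 to 43.5 FPKM (median 35.0) after ischemia, a log2 fold change of 2.69 (SE 0.35, adjusted p = 1.34e-05). The helicase subunits Mcm2 and Mcm5 rose by 1.20 (SE 0.23) and 1.58 (SE 0.30). Pcna, the sliding clamp of the polymerases, rose by 1.02 (SE 0.21, adjusted p = 0.000932) from between 30.2 and 39.4 to between 46.8 and 95.7 FPKM. The fold change of Pcna was below the threshold, between 0.93 and 0.99, when sham replicate 2 or any of the replicates 1 and 2 of the ischemic groups was left out. With sham replicate 1 alone, 28 mitosis genes and 17 replication genes rose, and the medians were 1.43 and 0.99.

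Regulators around the cell cycle were less uniform. Of 26 cyclins, cyclin kinases, inhibitors and cell cycle transcription factors of the G1 phase 5 rose (Foxm1, Ccne1, E2f8, E2f1 and Ccne2), 0 fell, and the median was 0.50. The rises were 8 with a pseudocount of 0.1 FPKM and 8 with every kidney scaled to an equal FPKM sum. Foxm1, the transcription factor of mitotic genes, rose from 0.87, 0.54 and 0.71 FPKM to between 2.49 and 8.5 FPKM, a log2 fold change of 1.81 (SE 0.26, adjusted p = 4.01e-05). Ccnd1 (cyclin D1) had a log2 fold change of -0.80 (SE 0.14), with 56.7 to 75.0 FPKM after ischemia below 94.3 to 137 FPKM in sham, which did not pass the fold threshold. Cdkn1a, the inhibitor p21, went from between 7.32 and 8.93 to between 9.80 and 21.4 FPKM, and its log2 fold change of 0.59 had an adjusted p of 0.179. Of 28 p53 targets 2 rose, Gtse1 and Plk3, 0 fell (1 without sham replicate 1), and the median was 0.14. Among all genes tested 1.83% rose and 1.11% fell. Gtse1 is itself a protein of G2 and mitosis. The G1 kinase Cdk4 had a log2 fold change of 0.51 (SE 0.13) and was not called. Mdm2 and Ccng1, direct p53 targets, had log2 fold changes of -0.27 and -0.03.

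The promoters of these genes are shown because the mitosis and replication lists carried different letters around their start sites. The windows are from RefSeq on GRCm38.p6, the build of the deposited values, and hold 250 bases before and 50 after a start site for 27025 genes. The letters TTTGAA of the cell cycle homology region, counted on both strands, were present for 26 of 36 mitosis genes with a window (72.2%), for 5 of 37 replication genes (13.5%) and for 20.2% of all genes. The E2F letters TTTCCCGC or TTTGGCGC were present for 12 of the 37 replication genes (32.4%), for 0 of the 36 mitosis genes and for 1.8% of all genes. A match describes letters and not a bound site. Below are 100 bases of the sense strand for each of 4 genes, with the matches in capitals, for Cdk1 (chr10:69352913-69353012, minus strand), Ube2c (chr2:164769829-164769928, plus strand) and Mki67 (chr7:135716416-135716515, minus strand) with TTTGAA or its reverse complement, and for Mcm5 (chr8:75109340-75109439, plus strand) with the reverse complement of an E2F match. The stretches of Cdk1 and Ube2c end at the start site, and those of Mki67 and Mcm5 end upstream of it.
Cdk1: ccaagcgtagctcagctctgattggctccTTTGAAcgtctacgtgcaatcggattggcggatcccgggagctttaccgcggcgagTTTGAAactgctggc
Ube2c: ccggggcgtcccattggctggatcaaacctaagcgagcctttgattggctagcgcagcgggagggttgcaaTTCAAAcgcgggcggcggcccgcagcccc
Mki67: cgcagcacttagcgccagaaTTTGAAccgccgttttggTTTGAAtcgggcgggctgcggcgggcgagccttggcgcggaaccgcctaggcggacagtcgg
Mcm5: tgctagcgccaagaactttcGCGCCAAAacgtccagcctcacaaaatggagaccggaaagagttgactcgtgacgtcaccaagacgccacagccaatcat

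Collagens and other matrix genes were among the DEGs. Of 34 genes of the extracellular matrix and its remodelling 14 rose, 0 fell, and the median was 0.94. Col1a1 (a chain of collagen I) stood at 5.08, 2.57 and 3.79 FPKM in sham and at 35.9 to 58.1 FPKM (median 52.2) after ischemia, a log2 fold change of 3.28 (SE 0.27, adjusted p = 8.96e-08). Col3a1, of collagen III, rose from between 3.69 and 5.87 to between 31.2 and 61.9 FPKM (log2 fold change 3.01, SE 0.27), and Fn1, fibronectin, rose by 1.77 (SE 0.22). Timp1, an inhibitor of matrix metalloproteinases, stood at 0.60, 0.22 and 3.67 FPKM in sham and at 11.8 to 29.8 FPKM after ischemia, a log2 fold change of 3.38 (SE 0.49, adjusted p = 3.42e-05). The groups were apart in all 4 genes. Fibroblast and pericyte markers (Pdgfrb, Pdgfra, Dcn, Acta2 and Col3a1) summed to 40.6 to 46.5 FPKM in sham and 81.4 to 156 FPKM after ischemia, with 2 of 5 called higher (Acta2 and Col3a1, the latter also in the matrix list). The median log2 fold change of these markers was 0.88. Pdgfrb was higher without overlap, at 5.73 to 7.20 FPKM in sham and 9.51 to 16.0 FPKM after ischemia, and was not called. Dcn, decorin, stood at 14.7 to 19.1 FPKM in sham and 9.27 to 16.9 FPKM after ischemia, and Pdgfra at 3.77 to 4.63 and 3.43 to 6.11 FPKM. The part of fibroblasts and pericytes in the matrix result was not tested.

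Tubulins and actin-associated genes were also among the DEGs. Of 31 tubulins and actin-associated genes 14 rose and 0 fell, all 31 log2 fold changes were positive, and the median was 0.90. All 6 ischemic kidneys lay above sham in 29 members, and in 21.8% of all genes. Tmsb10, which sequesters actin monomers, rose from between 69.2 and 81.5 to between 218 and 343 FPKM (log2 fold change 1.78, SE 0.22). Tubb6, a beta tubulin, rose by 1.56 (SE 0.21), and Actb, the cytoplasmic beta actin often used as a reference gene, had a log2 fold change of 0.44 (SE 0.09) with no overlap. Tuba1c, an alpha tubulin, had 0.69 and was not called. Of 21 annexins and S100 calcium-binding proteins 6 rose and 1 fell. S100a6 rose most, from 10.9, 8.27 and 24.7 FPKM to between 90.3 and 185 FPKM (log2 fold change 3.24, SE 0.39, adjusted p = 4.91e-06), and Anxa2 rose by 1.73 (SE 0.29). S100a11 rose by 1.07 and by 0.94 without sham replicate 2, and without that kidney 3 members of this list rose. Without sham replicate 1 the falls in the list were 2. S100g, calbindin D9k of the distal tubule, fell by 1.08 on the log2 scale (SE 0.23), and the fall was 0.96 without quantile normalization.

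Chemokines that draw monocytes and neutrophils rose, while the cytokine Il6 was near 0. Of 29 inflammatory cytokines, chemokines and their regulators 9 rose, 0 fell, and the median was 0.57. Cxcl1, a neutrophil chemokine, stood at 0.83, 1.48 and 3.60 FPKM in sham and at 15.4 to 50.4 FPKM (median 32.2) after ischemia (log2 fold change 3.32, SE 0.50, adjusted p = 5.23e-05). Ccl2, a monocyte chemokine, rose from 0.66, 0.80 and 1.68 FPKM to between 5.68 and 11.2 FPKM (log2 fold change 2.1, SE 0.30, adjusted p = 2.94e-05). Neither overlapped. Il6 stood at 0, 0 and 0.72 FPKM in sham and at 0.06 to 0.46 FPKM after ischemia, and Ptgs2 (cyclooxygenase 2) at 0.11, 0.17 and 1.15 against 0.21 to 0.67 FPKM. The groups overlapped in both, with sham replicate 3 the highest, and the adjusted p-values were 0.851 and 0.532.

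Markers of inflammatory cells moved for macrophages only in part. The macrophage and dendritic cell markers summed to 66.3 to 76.3 FPKM in sham and to 101 to 146 FPKM after ischemia, and 2 of 8 were called higher. Cd68, a lysosomal glycoprotein, rose from 3.04, 3.61 and 3.48 FPKM to between 17.5 and 29.2 FPKM (log2 fold change 2.37, SE 0.23, adjusted p = 5.11e-07), and Lyz2 (lysozyme) rose by 1.44 (SE 0.36). Adgre1, the F4/80 antigen that defines tissue macrophages, was at 0.79 to 1.53 FPKM in sham and at 1.0 to 1.75 FPKM after ischemia. Csf1r stood at 13.7 to 18.3 against 10.3 to 15.5 FPKM, and C1qa at 14.8 to 21.9 against 13.6 to 21.2 FPKM. C1qb and Itgax also overlapped. Ccr2 was higher without overlap, at 0.62 to 1.28 against 1.44 to 3.15 FPKM, and was not called. The median log2 fold change of the list was 0.19. The neutrophil markers summed to 4.89 to 10.9 FPKM in sham and 4.42 to 6.60 FPKM after ischemia, the T and NK cell markers to 2.48 to 6.96 and 2.58 to 4.19 FPKM, and the B and plasma cell markers to 2.21 to 3.81 and 2.58 to 3.58 FPKM. No gene of these last 3 lists was called. The part of macrophages in the chemokine result was not tested.

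Some immediate early genes, which cells transcribe soon after a stimulus, were higher 24 h after the operation. Of 23 such genes 5 rose (Egr1, Fos, Junb, Zfp36 and Nr4a1), 0 fell, all 23 log2 fold changes were positive, and the median was 0.62. Egr1, a zinc finger transcription factor, stood at 3.31, 1.71 and 3.54 FPKM in sham and at 13.1 to 50.3 FPKM (median 25.7) after ischemia, a log2 fold change of 2.75 (SE 0.37, adjusted p = 2.06e-05). Fos, a subunit of AP-1, rose from 0.61, 0.38 and 0.73 FPKM to between 2.11 and 8.40 FPKM (log2 fold change 1.72, SE 0.40, adjusted p = 0.0023), and its adjusted p was 0.0883 against sham replicate 1 alone. In both genes 20 min replicate 3 was the highest kidney, the reverse of its place in the cell cycle genes. Jun and Atf3, partners of Fos, had log2 fold changes of 0.96 and 0.57 and were not called. Jun passed the threshold without sham replicate 3 (1.14), without 18 min replicate 2 (1.0), without quantile normalization (1.06) and against sham replicate 1 alone (1.19). The count of rises in the list was 10 with a pseudocount of 0.1 FPKM and 9 with every kidney scaled to an equal FPKM sum. The AP-1 letters TGANTCA were present in the promoter windows of 0 of 18 genes of the list with a window and of 8.97% of all genes.

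**Figure D2:**
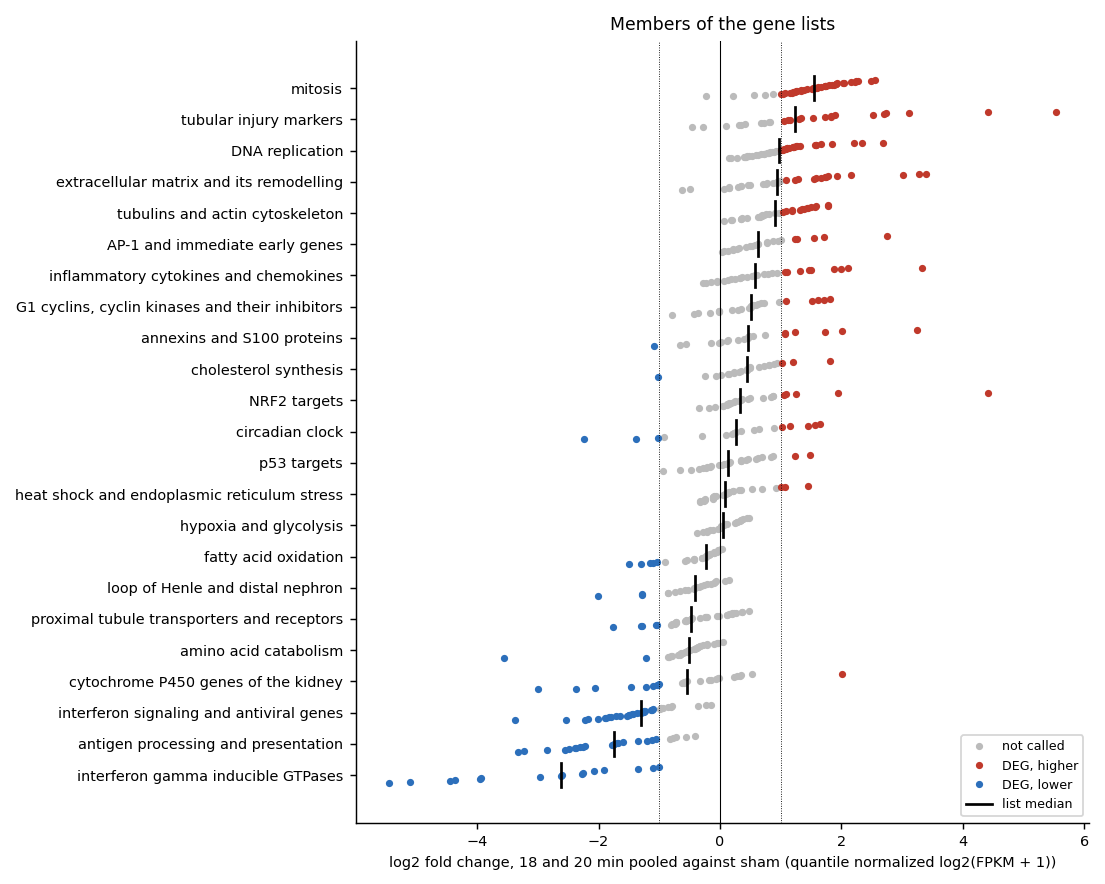
log2 fold change (x axis, 18 and 20 min pooled against sham) of each tested member of 23 gene lists, with DEGs in red and blue, genes not called in grey, a bar at the list median and dotted lines at the fold threshold. The mitosis list has the highest median, 1.55, and the interferon-inducible GTPases the lowest, -2.61, the latter against sham kidneys of which 2 were high.

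Interferon-inducible GTPases had the lowest log2 fold changes of all genes tested, with sham replicates 2 and 3 far above sham replicate 1. All 16 interferon gamma inducible GTPases tested, which attack vacuoles of intracellular pathogens, fell in the pooled comparison, with a median log2 fold change of -2.61. Gbp6 stood at 17.7, 466 and 291 FPKM in sham replicates 1, 2 and 3 and at 1.29 to 3.37 FPKM (median 2.55) after ischemia, a log2 fold change of -5.45 (SE 0.58, adjusted p = 1.53e-06). Irgm1 stood at 32.1, 410.4 and 326 FPKM in sham and at 19.0 to 30.6 FPKM after ischemia (log2 fold change -2.62, SE 0.47). Sham replicate 1 lay within the range of the ischemic kidneys in 4 of the 16 GTPases and above it in 10, whereas sham replicates 2 and 3 lay above it in all 16. With sham replicate 1 alone as control the median was -0.41. That kidney was taken as control because of its GTPase values, so this median is set in part by the choice and is a description. Gbp6 then had a log2 fold change of -2.57, Gbp10 one of -1.95, Irgm1 one of -0.28, Igtp -0.88 and Iigp1 -0.50. With 3 sham kidneys Igtp had -3.95 and Iigp1 -4.45. Fragments of near copies such as Tgtp1 and Tgtp2, or Gbp6 and Gbp10, may have been split by the counting.

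The interferon signaling genes were split between the sham kidneys in the same way. Of 36 interferon signaling and antiviral genes 26 fell with 3 sham kidneys, with a median of -1.30. The median was 0.02 with sham replicate 1 alone, the kidney picked for its interferon values, so it is a description. Leaving out sham replicate 2 gave 14 falls and leaving out sham replicate 3 gave 16. Irf1, a transcription factor of interferon responses, stood at 8.82, 76.6 and 63.9 FPKM in sham and at 7.3 to 11.3 FPKM after ischemia, so sham replicate 1 lay inside the ischemic range. The log2 fold change of Irf1 was -1.88 (SE 0.40, adjusted p = 0.00129) with all sham kidneys and 0.0 against sham replicate 1. For Ifi47, a further GTPase of the signaling list, the values were -3.38 and -0.54. Ifit1, an antiviral RNA-binding protein, had -1.82 and 0.42. It lost its call without sham replicate 2 (adjusted p = 0.0581) and without sham replicate 3 (adjusted p = 0.0596). The call was also lost when only the kidneys compared were fitted (adjusted p = 0.055).

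Part of the antigen presentation list was lower against sham replicate 1 as well. Of 25 genes 20 fell with all sham kidneys (median -1.74), and the median was -0.49 with sham replicate 1 alone. Cd74, the invariant chain of MHC class II, stood at 674, 622 and 624 FPKM in sham, equally high in all 3 kidneys, and at 45.4 to 82.6 FPKM (median 75.2) after ischemia. Its log2 fold change was -3.33 (SE 0.30, adjusted p = 2.17e-07), and it was -3.38 against sham replicate 1. H2-Ab1, a class II beta chain, stood at 249, 391.9 and 399.7 FPKM against 20.4 to 45.7 FPKM, with log2 fold changes of -3.23 and -2.69. The class I heavy chain H2-K1 fell from between 384 and 452 to between 82.6 and 110.3 FPKM (log2 fold change -2.23, SE 0.10, adjusted p = 1.59e-11, -2.07 against sham replicate 1), and B2m, the light chain of class I, fell by 2.55 and 2.06. The peptide transporter gene Tap1, in contrast, stood at 6.33, 68.9 and 48.0 FPKM against 3.91 to 6.85 FPKM, and its change was -0.28 against sham replicate 1. Near-identical class I genes may have shared fragments.

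**Figure D3:**
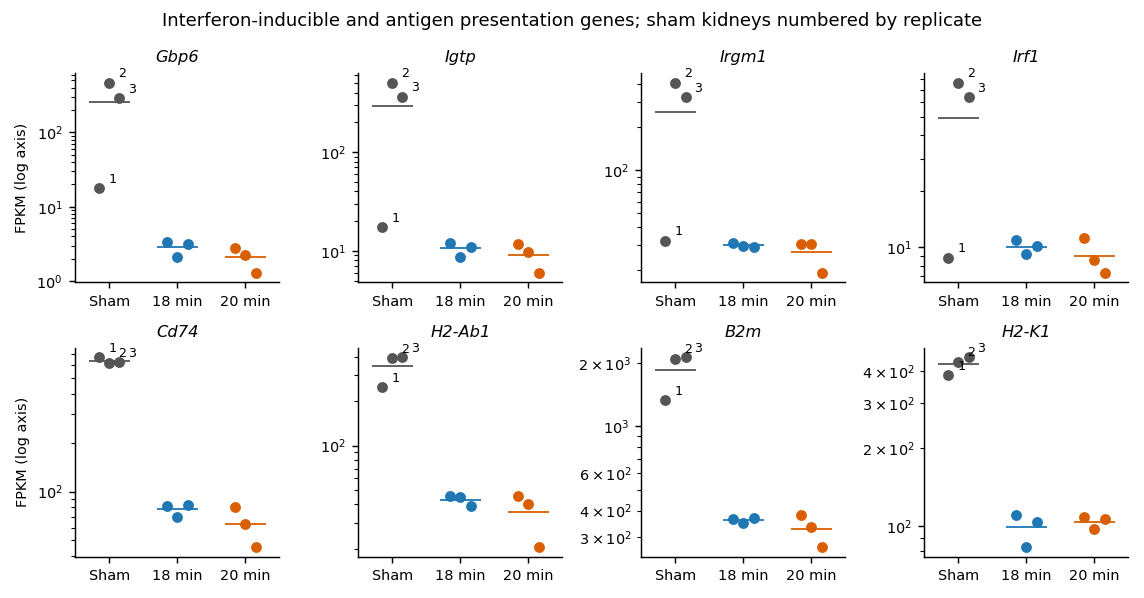
FPKM (log axis) of 8 genes in each kidney, with sham kidneys numbered by replicate and a line at each group mean. In Gbp6, Igtp, Irgm1 and Irf1 sham replicate 1 lies nearer to the ischemic kidneys than to sham replicates 2 and 3, while in Cd74, H2-Ab1, B2m and H2-K1 all 3 sham kidneys lie above them (Cd74 622 to 674 FPKM against at most 82.6 FPKM).

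The promoter windows of the interferon lists held letters known from interferon response elements. GAAANNGAA, the core of the interferon-stimulated response element, was present for 10 of 10 GTPases with a window (100%), for 16 of 28 interferon signaling genes (57.1%), for 5 of 19 antigen presentation genes (26.3%) and for 9.76% of all genes. TTCNNNGAA, the gamma-activated site, was present for 7 of the 10 GTPases, for 6 of the 28 signaling genes, for 1 of the 19 antigen presentation genes and for 9.55% of all genes. The stretches of Irgm1 (chr11:48871421-48871520, minus strand), Gbp2 (chr3:142620563-142620662, plus strand) and Tgtp1 (chr11:48992247-48992346, minus strand) are shown as 3 genes that were high in sham replicates 2 and 3. They run 5′ to 3′ on the sense strand up to the start site. Matches of GAAANNGAA or its reverse complement are in capitals, 2 of which overlap in Irgm1, and Tgtp1 also has the TTCNNNGAA match, the first of its 2 runs of capitals.
Irgm1: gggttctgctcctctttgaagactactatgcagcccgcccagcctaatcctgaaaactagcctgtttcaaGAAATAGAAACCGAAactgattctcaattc
Gbp2: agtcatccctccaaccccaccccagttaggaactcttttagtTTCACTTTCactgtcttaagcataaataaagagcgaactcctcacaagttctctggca
Tgtp1: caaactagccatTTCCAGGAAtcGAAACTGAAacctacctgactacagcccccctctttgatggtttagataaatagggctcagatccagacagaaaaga

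A few metabolic genes of the proximal tubule were called lower. Of 34 amino acid catabolism genes 2 fell (Hpd and Hao2), 33 had a negative log2 fold change, and the median was -0.51. Of all genes 1.11% fell. All 6 ischemic kidneys lay below sham in 23 of the 34, and in 8.75% of all genes. Hpd, 4-hydroxyphenylpyruvate dioxygenase of tyrosine breakdown, stood at 69.4, 60.0 and 77.4 FPKM in sham and at 2.79 to 8.48 FPKM (median 5.54) after ischemia, a log2 fold change of -3.56 (SE 0.36, adjusted p = 8.39e-07). The group ranges of Hpd were far apart, and its change was -3.57 against sham replicate 1. Bckdha and Mmut, of branched-chain and propionate breakdown, had -0.50 and -0.69 and were not called. Of 29 fatty acid oxidation genes 5 fell and 27 were negative, with a median of -0.23. All 6 ischemic kidneys lay below sham in 8 of the 29. Ehhadh, the peroxisomal bifunctional enzyme, fell by 1.51 on the log2 scale (SE 0.23), from between 321 and 362 to between 85.8 and 152 FPKM. Acadm, the medium-chain acyl-CoA dehydrogenase, fell by 1.16 (SE 0.13), and by 0.95 without quantile normalization. The regulators Ppara and Cpt1a overlapped between the groups, with log2 fold changes of -0.19 and -0.16. Leaving out sham replicate 2, using sham replicate 1 alone or fitting without quantile normalization left 3 fatty acid oxidation genes called.

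Cytochrome P450 genes held falls and a rise. Of 25 genes 9 fell and 1 rose, with a median of -0.54, where 1.11% of all genes fell and 1.83% rose. Cyp7b1, an oxysterol 7-alpha-hydroxylase, stood at 126, 153 and 136 FPKM in sham and at 10.2 to 25.4 FPKM (median 14.8) after ischemia, a log2 fold change of -3.00 (SE 0.40, adjusted p = 1.61e-05). Cyp24a1, which inactivates vitamin D, was the gene that rose, from 29.2, 14.9 and 13.3 FPKM to between 59.4 and 124 FPKM (log2 fold change 2.01, SE 0.34, adjusted p = 0.000158). Against sham replicate 1, the highest of the 3, the change of Cyp24a1 was 1.34 with an adjusted p of 0.088. Cyp27b1, which activates vitamin D, stood at 1.60 to 2.59 against 1.33 to 3.42 FPKM, and the groups overlapped. Cyp2e1 and Cyp4a10 lay at the fold threshold, with falls of 1.01 and 1.04 that were 0.96 and 0.84 without quantile normalization. The fall of Cyp2e1 was 0.99 to 1.0 without sham replicate 1, sham replicate 3, 18 min replicate 2 or 18 min replicate 3, and that of Cyp4a10 was 0.94 to 0.98 without sham replicate 2, sham replicate 3 or 18 min replicate 1, all below the fold threshold. Leaving out sham replicate 2, or using sham replicate 1 alone, left 5 falls in the list.

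Most transporter genes of the proximal tubule were not called. Of 36 transporters and receptors 5 fell (Slc22a7, Slc22a19, Aqp1, Slc7a13 and Mep1b), 0 rose, and the median was -0.48. Among all genes 1.11% fell. All 6 ischemic kidneys lay below sham in 19 of the 36 and above it in 2. In all genes these shares were 8.75% and 21.8%. The log2 fold change was negative in 26 of the 36 and positive in 10. Slc22a7, an organic anion transporter, stood at 107, 97.8 and 85.4 FPKM in sham and at 18.8 to 40.3 FPKM (median 27.5) after ischemia, a log2 fold change of -1.76 (SE 0.28, adjusted p = 8.63e-05). Slc34a1, the sodium-phosphate cotransporter that defines the proximal tubule, overlapped at 2028 to 2377 against 1876 to 2284 FPKM. Lrp2, the endocytic receptor megalin, had a log2 fold change of -0.75 (SE 0.18, adjusted p = 0.00275) with no overlap, and Slc5a2, the glucose transporter SGLT2, had 0.37 (adjusted p = 0.208). The count of falls was 3 without sham replicate 1, without sham replicate 2 or without 18 min replicate 1.

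The fold change of Kap, the kidney androgen-regulated protein of the proximal tubule, depended on the scaling. Kap took 8.68% to 9.26% of the summed FPKM in the sham kidneys and 3.94% to 5.37% in the ischemic kidneys. The groups did not overlap. In the quantile normalized fit the log2 fold change of Kap was -0.21 (adjusted p = 0.403). Kap had rank 1 in FPKM or 2 in each of the 9 kidneys, and quantile normalization gives equal ranks equal values. Without it the change was -1.0 (SE 0.17, adjusted p = 0.00015). Kap was singled out after its values were seen.

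In the distal nephron Egf led the falls. Egf, whose precursor is made by the thick ascending limb and distal convoluted tubule, stood at 301, 375 and 259 FPKM in sham and at 50.2 to 173 FPKM (median 74.5) after ischemia, a log2 fold change of -2.01 (SE 0.51, adjusted p = 0.00474). The groups did not overlap, with 20 min replicate 3 nearest to sham, and against sham replicate 1 alone the change was -1.96 with an adjusted p of 0.123. Umod, uromodulin of the thick ascending limb, overlapped at 1247 to 1405 against 954 to 1841 FPKM. Slc12a3, the thiazide-sensitive cotransporter, had a log2 fold change of -0.21 and was not called. Slc12a1, the NKCC2 cotransporter of the thick ascending limb, fell by 1.29 (SE 0.46, adjusted p = 0.0361). That call was lost when any of 7 kidneys was left out, with adjusted p-values of 0.0509 to 0.13. Of 22 loop and distal nephron genes 3 fell (Egf, Pvalb and Slc12a1), and 1 fell when sham replicate 1, sham replicate 2, 18 min replicate 2, 20 min replicate 1 or 20 min replicate 2 was left out. The share of falls in all genes was 1.11%.

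No hypoxia or glycolysis gene was called, and the heat shock and sterol lists held 3 rises each, where 1.83% of all genes rose. Of 24 hypoxia and glycolysis genes 0 were called in limma, with a median of 0.05 and a range of -0.37 to 0.48. All 6 ischemic kidneys lay above sham in 8 of the 24, and in 21.8% of all genes. Ldha, lactate dehydrogenase A, stood without overlap at 384 to 420.1 against 499 to 604 FPKM (log2 fold change 0.32, SE 0.06). Vegfa and Slc2a1, targets of hypoxia-inducible factors, overlapped, as did Pgam2, a muscle-type phosphoglycerate mutase, at 63.7 to 74.0 against 43.1 to 74.5 FPKM. Of 29 heat shock and endoplasmic reticulum stress genes 3 rose (Phgdh, Hspb1 and Asns), and Hspa1a, Hspa5 and Ddit3 overlapped. Phgdh and Asns are enzymes of serine and asparagine synthesis, and Phgdh went from 6.66, 5.95 and 9.08 FPKM to between 18.1 and 26.7 FPKM (log2 fold change 1.44, SE 0.19). Leaving out sham replicate 1 or sham replicate 2 left 1 gene of that list called. Of 24 cholesterol synthesis genes 3 rose and 1 fell, with a median of 0.45. Fdps, farnesyl diphosphate synthase, rose by 1.21 on the log2 scale (SE 0.17), and Sqle, squalene epoxidase, had 0.34 and was not called. Cyp51, lanosterol demethylase, fell by 1.02 but by 0.94 without sham replicate 2 or without 20 min replicate 1, and by 0.98 without 18 min replicate 1.

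Clock genes differed between the groups in opposite directions. Of 19 circadian clock genes 5 rose (Dbp, Ciart, Per2, Wee1 and Bhlhe40) and 3 fell (Arntl, Npas2 and Nr1d1). In all genes the shares were 1.83% and 1.11%. Arntl, which encodes the activator BMAL1, stood at 8.38, 5.41 and 5.78 FPKM in sham and at 0.40 to 1.05 FPKM (median 0.70) after ischemia, a log2 fold change of -2.24 (SE 0.18, adjusted p = 5.33e-08). Dbp, an output gene that BMAL1 and CLOCK drive, stood at 19.2, 28.8 and 24.3 FPKM in sham and at 71.9 to 93.3 FPKM (median 82.6) after ischemia (log2 fold change 1.64, SE 0.17, adjusted p = 1.39e-06). The groups were apart in both, and sham replicate 1 was the highest sham kidney in Arntl and the lowest in Dbp. Per1, a repressor of the clock, overlapped at 3.85 to 9.11 against 7.40 to 12.0 FPKM. These genes cycle over the day in kidney, and the sources used here do not give the hour at which each mouse was operated on or killed, so the hour and the ischemia cannot be told apart. Without sham replicate 1 the falls in the list were 1.

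**Figure D4:**
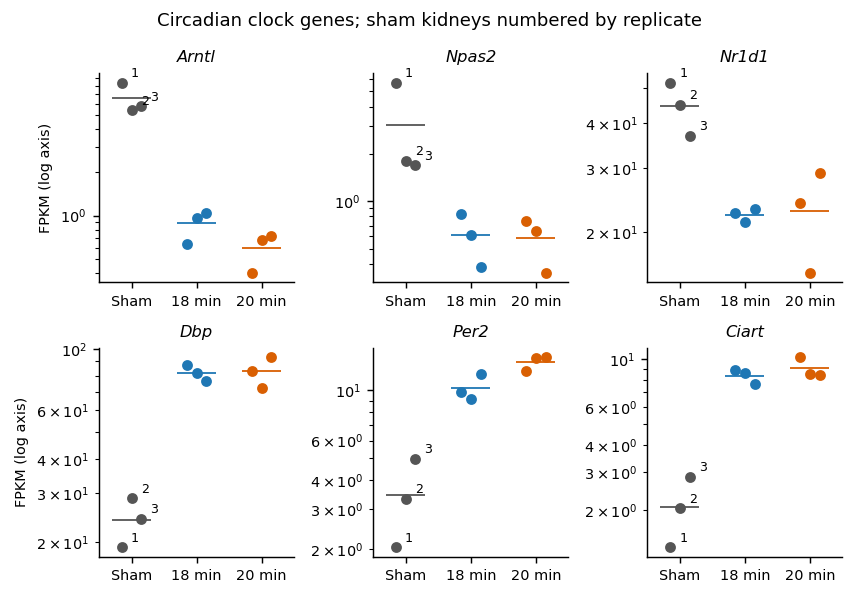
FPKM (log axis) of 6 clock genes in each kidney, with sham kidneys numbered by replicate and a line at each group mean. Arntl, Npas2 and Nr1d1 are lower and Dbp, Per2 and Ciart higher in all 6 ischemic kidneys, and in Arntl the highest ischemic kidney (1.05 FPKM) is far under the lowest sham kidney (5.41 FPKM).

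Markers of fat, blood and urothelium varied among the kidneys. Adipocyte markers summed to 0.27 to 2.23 FPKM in sham, to 213 FPKM in 18 min replicate 1, to 61.1 FPKM in 20 min replicate 1 and to between 0.91 and 12 FPKM in the other 4 ischemic kidneys. Adipoq, the fat cell hormone adiponectin, was at 24.5 and 7.03 FPKM in those 2 kidneys and not called (adjusted p = 0.173). Erythroid markers summed to 484 FPKM in sham replicate 1, to 164 and 123 FPKM in sham replicates 2 and 3 and to 312 to 873 FPKM after ischemia, and Hba-a1 and Hbb-bs, the globin genes, were called higher with 3 sham kidneys and had log2 fold changes of -0.06 and -0.05 against sham replicate 1. Urothelial markers summed to 1.49 to 3.66 FPKM in sham and to 1.37 to 17.5 FPKM after ischemia. The part of these cells in the gene lists above was not tested.

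The 18 and 20 min kidneys had no gene called between them at this number of kidneys. Against sham, 358 genes rose (1.97%) and 199 fell (1.09%) at 18 min, and 282 rose (1.55%) and 175 fell (0.962%) at 20 min, both against the same 3 sham kidneys. In the direct comparison 0 of 18188 genes (0%) were called in limma, with 514 genes at an unadjusted p under 0.05. The 95% interval of the difference lay within 1 on the log2 scale in 97.9% of all genes, and in 373 of the 534 DEGs. For Havcr1 the difference, 20 minus 18 min, was -0.10 on the log2 scale with an interval from -1.65 to 1.45. For Cd74 it was -0.32 (-1.04 to 0.40) and for Rrm2 -0.40 (-1.25 to 0.45), so changes of the size of the fold threshold were within these intervals. The gene with the smallest unadjusted p was Fbxl14, a substrate receptor of a ubiquitin ligase, at 7.46 to 8.06 FPKM at 18 min and 8.79 to 9.49 FPKM at 20 min, a difference of 0.22 (SE 0.04, adjusted p = 1). Phf8, a histone demethylase, and Arhgap9, a GTPase activating protein, came next with differences of 0.26 and -0.41 and the same adjusted p.

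Neighbouring ischemia times gave 1 call in all against the pooled kidneys. Against 16 min 0 genes (0%) were called, with 801 at an unadjusted p under 0.05 (2196 without 16 min replicate 2 and 1 at an adjusted p under 0.05, 1202 without 16 min replicate 3 and 1286 without 20 min replicate 3), and 98.6% of the intervals lay within 1 on the log2 scale. The 3 smallest p-values there belonged to LOC100862220, Msmp and Oxtr, genes at or below 0.30 FPKM in the 6 kidneys. Against 22 and 24 min together 0 genes (0%) were called, with 552 at an unadjusted p under 0.05 and 99.3% of the intervals within 1. The smallest p-values were those of Sec14l3, Ccl24 and Tubb3. Against 26 min 1 gene (0.0055%) was called, with 1830 at an unadjusted p under 0.05 (1021 without 26 min replicate 3) and 98.0% of the intervals within 1. These shares include genes with low values, which can hardly move by 1 on this scale. Of the 534 DEGs against sham, 420 had an interval within 1 against 16 min. The counts were 497 against 22 and 24 min and 401 against 26 min.

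Sec14l3, a lipid-binding protein of the SEC14 family, was the gene called between the pooled kidneys and 26 min. It stood at 2.32, 2.56 and 3.58 FPKM at 18 min, at 2.97, 3.01 and 4.48 FPKM at 20 min and at 0.75 to 1.4 FPKM at 26 min, a log2 difference of 1.01 (SE 0.14, adjusted p = 0.0111). The groups did not overlap. The difference was 0.90 without 26 min replicate 1, 0.92 without 20 min replicate 3 and 0.98 without 18 min replicate 3, below the fold threshold, and without 26 min replicate 2 it was 0.99 with an adjusted p of 0.0672. Sec14l3 stood at 6.46 to 7.60 FPKM in sham and at 0.05 to 0.15 FPKM at 30 min, so the pooled kidneys lay between. It was also lower without overlap at 22 min (1.54 to 2.17 FPKM) and 24 min (1.24 to 1.83 FPKM), where it was not called. Genes that were not called could be apart as well. Cyp2e1 stood at 387 to 429 FPKM at 18 min, 402 to 426 FPKM at 20 min and 221 to 264 FPKM at 26 min.

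The leading genes of the comparison were also followed over all 9 ischemia times, as means of 3 kidneys. The mean of Havcr1 was 9.11 FPKM in sham and 394 and 340.3 FPKM after 18 and 20 min. It was 314 FPKM after 16 min, lay between 396 and 557 FPKM from 22 to 26 min, and was 1273 and 987 FPKM after 28 and 30 min. The mean of Mki67 was 0.697 FPKM in sham, 9.14 and 6.67 FPKM after 18 and 20 min, and 3.51 and 1.38 FPKM after 28 and 30 min. The mean of Egf was 312 FPKM in sham, 77.6 and 95.9 FPKM after 18 and 20 min, and 4.86 and 8.17 FPKM after 28 and 30 min. The mean of Havcr1 was thus higher, and those of Egf and Mki67 lower, at 28 and 30 min than at 18 and 20 min. From 16 to 26 min the mean of Mki67 lay between 6.67 and 9.14 FPKM at every time, with overlapping ranges. At 16 min the 3 kidneys spread widely, from 35.1 to 574 FPKM in Havcr1 and from 37.0 to 329.6 FPKM in Egf. Times beyond 26 min were not tested here.

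**Figure D5:**
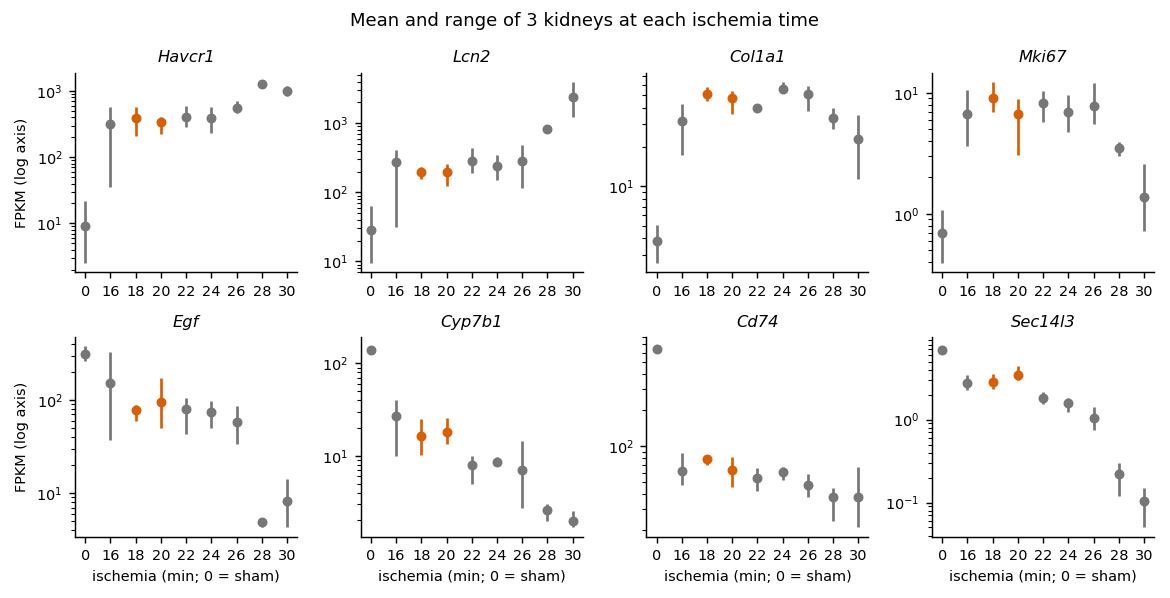
FPKM (log axis) of 8 genes against ischemia time (min, 0 for sham), with a point at the mean and a line from the lowest to the highest of 3 kidneys, and 18 and 20 min in orange. The 18 and 20 min kidneys lie apart from sham in all 8 genes (Havcr1 means of 394 and 340.3 FPKM against 9.11 in sham).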

How the data were processed

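RNA of the left kidney of each mouse was sequenced on DNBSEQ. The submitters' processing notes name Bowtie2, RSEM, DESeq2 and GRCm38.p6, with no role or order, and the authors deposited FPKM per gene. RSEM shares reads among near copies. Genes above 0 in at least 3 kidneys were kept, FPKM + 1 was log2 transformed and quantile normalized, and limma 3.58.1 (R 4.3.3) was fitted to all 27 kidneys with Benjamini-Hochberg adjustment over all genes tested. A DEG passed an adjusted p of 0.05 and a log2 fold change of 1. P-values rest on the spread between mice within groups, with 1 estimate per gene shared by all 27 kidneys. The wide sham spread of the interferon genes is thus averaged with the narrower spread of other groups. Fitting only the kidneys compared moved the smallest adjusted p of the pooled comparison in limma from 1.59e-11 to 1.05e-05. Alternatives changed the pseudocount, scaling, filter, samples, variance model and replicate block, or left out each kidney. Named genes were the 10 largest rises and falls without overlap, the first 3 genes and leading DEGs of each list, the genes the study measured by qPCR and the leading genes of each direct comparison. Further list members and markers were named after their values were seen. The comparison and gene lists were chosen with earlier results of these data known. The scripts were tested on simulated data. Genes that the lists hold and the values do not were not analysed here. Results of a few genes are not reported here.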

Additional observations from a re-analysis of the deposited data

Results flagged for a closer look

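Of 91 named genes tested for a kidney far from the other 5 of the pooled 18 and 20 min group, 8 had one, and chance gives about 1 in 20. In 20 min replicate 3, Col3a1 was at 31.16 FPKM against 48.57 to 61.86 in the other 5 kidneys, H2-Ab1 at 20.44 against 39.06 to 45.65, and Gtse1 at 1.5 against 3.29 to 4.85. The same kidney had Irgm1 at 19.02 against 29.12 to 30.61 FPKM. It was on the high side in Vegfa, at 86.41 against 65.13 to 71.46 FPKM, and in Ptgs2, at 0.67 against 0.21 to 0.35 FPKM. In 18 min replicate 1, Anxa2 was at 204.46 against 102.81 to 131.26 FPKM and Ehhadh at 85.79 against 134.95 to 152.09 FPKM.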

How the results depend on the processing

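The counts of genes that rose and fell moved with the pseudocount, the scaling and the control kidneys. With a pseudocount of 0.1 FPKM, 649 rose and 408 fell in the pooled comparison, 662 and 415 at 18 min, and 567 and 359 at 20 min. With FPKM rescaled to a constant sum (TPM) the rises were 525, 553 and 475. With sham replicate 1 alone, chosen after seeing the data, the falls were 126, 128 and 88, and 160 rose at 20 min. Fitting only the kidneys compared gave 110 falls at 20 min. Leaving out each kidney gave 282 to 365 rises and 152 to 213 falls pooled, 309 to 378 and 145 to 214 at 18 min, and 225 to 378 and 135 to 206 at 20 min. The cause was not tested. Against 26 min the rises were 3 without quantile normalization, 2 with TPM, 2 with a filter of 1 FPKM, 0 with only the kidneys compared, 2 with the replicate block and 0 to 3 when a kidney was left out.

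Kidneys were not treated as paired by replicate number. Same-numbered kidneys of the sham, 18 and 20 min groups had correlations of -0.193 to 0.48, of which 3 of 9 passed 0.1. Differently numbered ones had -0.337 to 0.166, of which 4 of 18 passed 0.1. With 3 kidneys per group these correlations cannot decide whether there was a pairing. The replicate block gave 330 rises and 202 falls in the pooled comparison.

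Of 1121 alternative values of 59 called named genes, 1065 kept direction and call, 54 in 22 genes lost the call and 2 reversed. Jun gained a call in 6 settings. The 2 that reversed were Irf1 (0.0) and Ifit1 (0.42) with sham replicate 1 alone. Of 32 named genes not called, 8 reversed in log2 fold change under some setting. Without quantile normalization these were Ccng1 (0.05), Umod (0.01) and Cyp27b1 (0.08), and with TPM Ccng1 (0.03), Il6 (0.02) and Cyp27b1 (0.08). Il6 was 0.28 with the smaller pseudocount. With sham replicate 1 alone Il6 was 0.24, Hspa5 0.09, Ddit3 0.18, Slc2a1 -0.16 and Ptgs2 0.24. Leaving out a kidney gave -0.06 to 0.03 for Ccng1, -0.2 to 0.24 for Il6, -0.17 to 0.02 for Umod, -0.18 to 0.07 for Cyp27b1, -0.06 to 0.14 for Slc2a1 and -0.35 to 0.18 for Ptgs2. Depth is unknown for FPKM, so low genes carry no counting interval.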

Other observations

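Further genes, chosen after their values were seen, also moved. All but Cyp26b1, which is among the falls of the cytochrome P450 list, are outside the lists above. Pigr, the receptor that carries IgA across epithelia, fell from 132, 116 and 108 FPKM in sham to between 12.5 and 19.5 FPKM in the pooled 18 and 20 min kidneys, a log2 fold change of -2.76 (SE 0.18, adjusted p = 4.52e-09 in limma). Aldh1a2, which makes retinoic acid, rose from 0.74, 0.58 and 1.20 FPKM to between 4.54 and 15.0 FPKM (log2 fold change 2.40, SE 0.28), while Cyp26b1, which degrades it, fell by 1.46 on the log2 scale (SE 0.26). Lgals3, a galactoside-binding lectin, rose from between 25.4 and 31.8 to between 113 and 167 FPKM (log2 fold change 2.1, SE 0.23). Mt2, a metallothionein, rose by 1.66 (SE 0.41), and Lpl, lipoprotein lipase, fell by 1.39 (SE 0.19). All 6 ischemic kidneys lay beyond the 3 sham kidneys in each of these genes, which were picked with these values known. Among all genes they lay above sham in 21.8% and below it in 8.75%.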
